A study of Mus musculus with 3 samples.

Results

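The 38 genes described here encode proteins that copy the DNA of a dividing cell or carry it through mitosis. They were taken by symbol from a list of cell cycle genes that was chosen with earlier results of these data known. Each symbol named 1 of the 32285 gene rows of both deposited matrices. The first 14 act in S phase, when DNA is replicated (Mcm2, Mcm3, Mcm4, Mcm5, Mcm6, Mcm7, Pcna, Tyms, Rrm1, Rrm2, Gins2, Ung, Pclaf and Cdc6). The other 24 act mainly in G2 and mitosis (Mki67, Top2a, Birc5, Cdk1, Ccna2, Ccnb1, Ccnb2, Ube2c, Cenpf, Cenpe, Cenpa, Aurka, Aurkb, Bub1, Bub1b, Plk1, Cdc20, Tpx2, Nusap1, Kif11, Kif23, Hmmr, Stmn1 and Tuba1b).

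The cells were CD4+ T cells of MRL/lpr mice, a strain with a defect in Fas in which T cells accumulate and lupus nephritis develops, and the study addressed Ezh2, the catalytic subunit of Polycomb repressive complex 2, in these cells. KO mice carried loxP-flanked Ezh2 (Ezh2fl/fl) and CD4-Cre/ERT2, a Cre recombinase driven by the Cd4 promoter and active only with tamoxifen. WT mice were Ezh2fl/fl without the Cre, so they also carried the floxed alleles, and both genotypes received tamoxifen at 300 mg/kg by mouth on 3 days a week, every other week. Dosing began at 10 weeks of age (preventative) or at 14 weeks (therapeutic) and went on to 24 weeks, and the labels do not tell which mouse followed which schedule. Kidneys were dissociated with enzymes at raised temperature and spleens were mashed through a strainer, so organ and dissociation cannot be told apart. The T cells were purified by a sort that used antibodies against CD8a and CD4 as well as CD3 and TCR beta, then marked with 1 antibody tag per mouse and organ, pooled, and read by single-cell sequencing of transcript 5′ ends.

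In a cell that prepares to divide, the Mcm2 to Mcm7 proteins are loaded onto DNA as a ring by Cdc6, are activated with the help of Gins2 and unwind the helix, while Pcna clamps the polymerases to the template. Many genes of this first step are driven by E2F factors, and many mitotic genes are switched on later through CHR and CCAAT elements in their promoters, read by the MuvB complexes and by NF-Y. T cells in the body are mostly at rest and enter this programme after they meet antigen.

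Of the 4 KO and 5 WT mice in the deposited tag key, KO1, KO2, WT1, WT2 and WT3 had barcode blocks led by their own tag. The first day gave 10 such blocks, 1 per mouse and organ, with 13368 cells, and 13337 were kept (4979 kidney, 8358 spleen). No barcode was shared between these 10 blocks. The second day gave 8 blocks of 981 to 2399 cells, with 17523 entries in all. The same cells stood under several mice and both organs, and these blocks entered no comparison. The 10 sums held between 219 cells with 900068 UMIs (unique molecular identifiers, each 1 captured transcript) in KO2 kidney and 2386 cells with 10102765 UMIs in WT1 spleen, and median UMIs per cell lay between 3187 and 3644.5. All 4 CD4 T cell markers examined (Cd3e, Cd3d, Cd4 and Trbc2) had UMIs in every sum. Their joint level was 2089 to 2198 raw CPM in KO kidneys against 2488 to 2655 in WT kidneys, and 2479.6 to 2721 raw CPM in KO spleens against 2887 to 3230.5 in WT spleens, so that both KO mice lay below all WT mice in each organ. Ezh2 had 75.6 and 59.6 CPM in KO kidneys against 89.9, 159 and 138 CPM in WT kidneys, and 51.2 and 53.4 CPM in KO spleens against 69.7, 171 and 152 CPM in WT spleens, so that both KO mice lay below all WT mice in each organ, with WT1 nearest to them. In edgeR the kidney log2 fold change of Ezh2 was -0.87 ± 0.26 (SE, adjusted p = 0.467), and the spleen value was -1.30 ± 0.39 (SE, adjusted p = 0.192). The labels do not say which part of Ezh2 is floxed, and UMIs of 5′ ends need not cover it, so these levels do not check the deletion. CPM of single genes are UMI counts scaled to 1000000 with TMM over the 10 sums, raw CPM are the same without TMM, and each sum is 1 organ of 1 mouse.

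The promoters of the members differ in the elements named above, and 4 of them are shown because their genes carry the results below. RefSeq promoter windows of GRCm38.p6, from 250 bases before to 50 bases after the start, were given for 32 of the 38 members. On either strand they were searched for an E2F element (TTT, then C or G at each of the next 2 positions, then CGC), for the CHR element TTTGAA and for CCAAT. In the 4 sequences, printed 5′ to 3′ on the strand of the gene, capitals mark these matches.
Mcm6, minus strand, chr1:128359656-128359955: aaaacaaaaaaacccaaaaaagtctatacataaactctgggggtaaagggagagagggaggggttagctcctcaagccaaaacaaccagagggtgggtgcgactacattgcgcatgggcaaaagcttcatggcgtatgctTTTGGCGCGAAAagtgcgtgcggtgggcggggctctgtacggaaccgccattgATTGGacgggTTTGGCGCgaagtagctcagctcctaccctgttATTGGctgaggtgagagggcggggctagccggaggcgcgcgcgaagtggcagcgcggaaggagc
Pcna, minus strand, chr2:132253131-132253430: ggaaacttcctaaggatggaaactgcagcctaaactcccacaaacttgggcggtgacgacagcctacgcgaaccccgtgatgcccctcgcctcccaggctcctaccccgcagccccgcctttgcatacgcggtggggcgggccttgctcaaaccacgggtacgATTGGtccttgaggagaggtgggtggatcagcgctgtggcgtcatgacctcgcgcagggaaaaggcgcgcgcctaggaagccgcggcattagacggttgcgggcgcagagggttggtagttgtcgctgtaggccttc
Plk1, plus strand, chr7:122159185-122159484: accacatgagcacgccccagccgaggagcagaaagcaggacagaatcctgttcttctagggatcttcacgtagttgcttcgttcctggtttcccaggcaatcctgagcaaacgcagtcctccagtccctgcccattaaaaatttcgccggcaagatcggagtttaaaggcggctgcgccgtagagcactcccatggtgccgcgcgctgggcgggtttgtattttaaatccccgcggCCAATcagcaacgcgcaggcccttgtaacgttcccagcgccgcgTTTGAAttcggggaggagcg
Top2a, minus strand, chr11:99024140-99024439: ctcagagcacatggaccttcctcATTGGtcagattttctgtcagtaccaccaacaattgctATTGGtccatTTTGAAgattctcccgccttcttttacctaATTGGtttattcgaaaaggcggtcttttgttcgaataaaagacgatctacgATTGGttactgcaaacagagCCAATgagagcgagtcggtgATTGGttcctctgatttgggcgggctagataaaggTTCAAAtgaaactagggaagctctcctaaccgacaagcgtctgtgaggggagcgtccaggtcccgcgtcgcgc

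The Mcm6 window held 3 E2F matches, 2 of which overlap and appear as 1 run of capitals, and 2 CCAAT matches. The Pcna window held 1 CCAAT match and neither of the other elements. The Plk1 window held 1 CHR and 1 CCAAT match, and the Top2a window 2 CHR and 6 CCAAT matches. An E2F match stood in 6 of the 12 S-phase members with a window (Mcm3, Mcm5, Mcm6, Mcm7, Pclaf and Cdc6) and in 1 of 20 mitotic members (Cdk1), against 2.61% of 27025 genes with windows of the same length. A CHR match stood in 14 of 20 mitotic members and in 1 of 12 S-phase members (Mcm2), against 20.2% of all genes. CCAAT was found in 17 of 20 mitotic and 9 of 12 S-phase members and in 41.1% of all genes. These are matches of letters and were not tested as binding sites.

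Most UMIs of the mitotic members came from few cells. A cell is called dividing here where it held at least 5 UMIs of 22 mitotic members, leaving out Stmn1 and Tuba1b, microtubule genes that resting cells may also express. This is a range of counts and not a cell type: 37 kidney and 32 spleen cells lay exactly at 5 UMIs, and 69 and 58 lay at 4. By this rule 404 of 13337 cells were dividing (3.03%), and they held 9.70% of all UMIs. Dividing cells were deep, with a median of 10658 UMIs in kidney and 11100 in spleen, against 3353 and 3349 in the other cells of the same organs. No doublet caller was run, so droplets with a pair of cells of the same mouse may be among them.

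Of the members that did not enter this rule, Pclaf, which binds Pcna at replication forks, had 94.5% of its UMIs in dividing cells. Rrm2, the regulated subunit of ribonucleotide reductase, had 80.7%, Cdc6 78.4% and Stmn1, a protein that destabilises microtubules, 79.9%. At the other end stood Mcm6 with 23.9%, Pcna with 25.1%, Mcm4 with 26.6%, Ung, the glycosylase that removes uracil from DNA, with 30.0% and Tuba1b with 41.9%. All of these shares lay above the 9.70% of all UMIs that dividing cells held. The 22 mitotic members that did enter the rule had between 45.1% (Cenpa) and 97.0% (Hmmr) of their UMIs in dividing cells. For each of these 22, its own UMIs were left out of the count that calls a cell dividing, and the others set the rule. Outside dividing cells, 29.5% of cells had an Mcm6 UMI and 24.3% a Pcna UMI. Only 0.495% had a Birc5 UMI and 0.108% an Hmmr UMI, again without the gene's own UMIs in the rule. Mki67 UMIs were found in 4.11% of naive-marker cells (median 4114 UMIs) and 6.15% of other cells (median 3295) of kidney, and in 3.93% (median 4079) and 6.75% (median 3165) of those of spleen. A naive-marker cell had UMIs of at least 3 of 5 genes of resting T cells (Igfbp4, Lef1, Ccr7, Actn1 and Tcf7). These cells were no clean negative, since 16 of them in kidney and 58 in spleen were themselves dividing. That was 2.86% of them in kidney, against 3.10% of other cells, and 2.96% in spleen, against 3.02%.

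**Figure D1:**
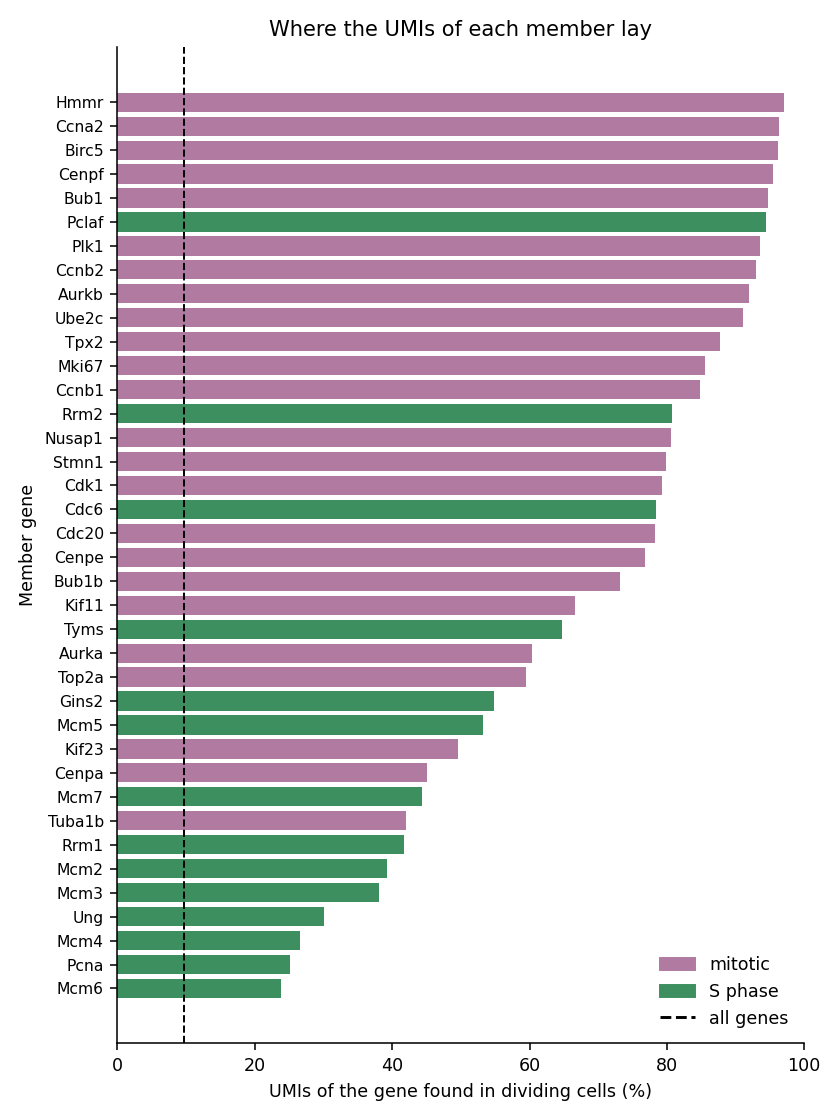
The horizontal axis gives the percent of each member's UMIs, over both organs, that lay in dividing cells, with S-phase members in green and mitotic members in purple. The dashed line marks the 9.70% of all UMIs in these cells, and the bars run from 23.9% for Mcm6 to 97.0% for Hmmr.

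Within dividing cells the S-phase members together had between 2448 and 3213 raw CPM, and within other cells between 364 and 532 raw CPM. The 22 mitotic members had between 3198 and 5472 raw CPM within dividing cells. Outside them, these members had between 82.9 and 198 raw CPM, where the rule caps the count at 4 UMIs a cell. The S-phase level within dividing cells was 2828 and 2636 raw CPM in KO kidneys against 2448, 2458 and 2746 raw CPM in WT kidneys and 3134 and 2906 raw CPM in KO spleens against 2817, 3213 and 3054 raw CPM in WT spleens. Genotypes overlapped in both organs, and kidney lay below spleen in 5 of 5 mice. Among other cells the S-phase level was 393 and 370.3 raw CPM in KO kidneys against 396, 532 and 471 raw CPM in WT kidneys and 364 and 367 raw CPM in KO spleens against 449, 476 and 425 raw CPM in WT spleens. There both KO mice lay below all WT mice in each organ, by a narrow margin in kidney (393 for KO1 against 396 for WT1).

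Over all cells of a sum, the 14 S-phase members together had 566 and 603 raw CPM in KO kidneys against 542, 791 and 603 raw CPM in WT kidneys. In spleen they had 534 and 499 raw CPM in KO spleens against 738, 1025 and 663 raw CPM in WT spleens. The KO kidneys lay within the WT range, while both KO spleens lay below all WT spleens. The 24 mitotic members had 573 and 703 raw CPM in KO kidneys against 601, 1143 and 553 raw CPM in WT kidneys, and 568 and 535 raw CPM in KO spleens against 932, 1501 and 881 raw CPM in WT spleens. WT2 was the highest mouse for both sums in each organ, and in spleen both KO mice again lay below all WT mice.

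The ratio of S-phase to mitotic UMIs was 0.987 and 0.858 in KO kidneys against 0.902, 0.692 and 1.09 in WT kidneys. It was 0.940 and 0.932 in KO spleens against 0.792, 0.683 and 0.753 in WT spleens. Both KO spleens lay above all WT spleens, so their mitotic sum stood further below WT than their S-phase sum did, and the genotypes overlapped in kidney. Kidney had the higher ratio in 4 of 5 mice. The ratio compares UMI counts of different genes and is read only between samples. No test was made of these sums, because the members were chosen with results of these data known.

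**Figure D2:**
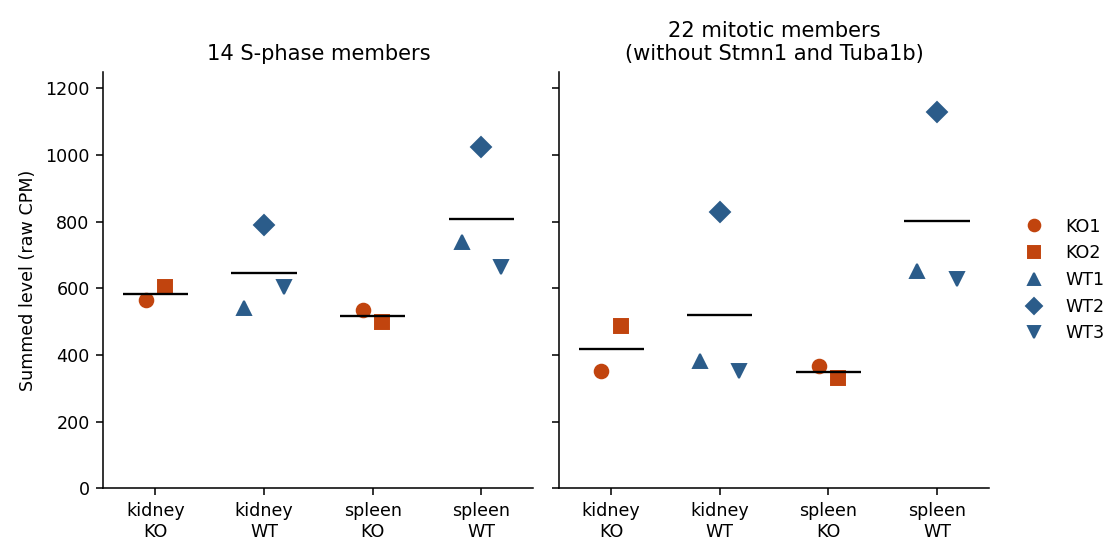
Summed levels (raw CPM) of the 14 S-phase members (left) and of the 22 mitotic members without Stmn1 and Tuba1b (right) are plotted for each mouse, with KO left of WT and kidney left of spleen. Horizontal lines are group means over 2 KO or 3 WT mice. WT2 is the highest mouse in each organ, with 1025 S-phase and 1130.2 mitotic raw CPM in spleen.

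The levels of the members follow by role, with values of the members of highest mean count in each role and of those at the ends of a comparison. Among the licensing genes, Mcm6 (chromosome 1, 128331575 to 128359705 in GRCm38) had 131 and 109 CPM in KO kidneys against 131, 212 and 166 CPM in WT kidneys, and 81.3 and 98.4 CPM in KO spleens against 145, 178 and 143 CPM in WT spleens. Both KO mice lay below all WT mice in each organ, but KO1 and WT1 were almost equal in kidney. Its log2 fold change, KO over WT, was -0.45 ± 0.22 (SE, adjusted p = 0.565) by edgeR in kidney, and the spleen value was -0.76 ± 0.15 (SE, adjusted p = 0.106). Mcm4, another subunit of the same helicase, had 55.3 and 56.1 CPM in KO kidneys against 47.7, 88.1 and 65.1 CPM in WT kidneys, and 65.7 and 59.4 CPM in KO spleens against 66.2, 102 and 82.5 CPM in WT spleens. In spleen KO1 and WT1 were close, and in kidney WT1 was the lowest mouse. The remaining licensing genes, Mcm2, Mcm3, Mcm5, Mcm7, Gins2 and Cdc6, had log2 fold changes of -0.65 (Mcm5) to -0.38 (Mcm2) in spleen.

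Of the genes of DNA synthesis and repair, Pcna (chromosome 2, 132249286 to 132253180) had 119 and 147 CPM in KO kidneys against 128, 121 and 107 CPM in WT kidneys, and 81.0 and 77.6 CPM in KO spleens against 83.2, 96.6 and 77.1 CPM in WT spleens. Genotypes overlapped in both organs, and every kidney lay above every spleen. Rrm1, the large subunit of ribonucleotide reductase, had 61.6 and 53.8 CPM in KO kidneys against 56.0, 65.0 and 50.7 CPM in WT kidneys. In spleen it had 38.4 and 33.8 CPM in KO spleens against 52.0, 68.1 and 43.8 CPM in WT spleens, with both KO mice below all WT mice there and an overlap in kidney. Ung (chromosome 5, 114130366 to 114139321) had 5.16 and 4.68 CPM in KO kidneys against 5.39, 6.11 and 4.98 CPM in WT kidneys, and 11.1 and 8.64 CPM in KO spleens against 10.7, 14.5 and 6.70 CPM in WT spleens. Here every spleen lay above every kidney, and the genotypes overlapped in both organs. Tyms and Rrm2, enzymes that make building blocks of DNA, and the Pcna-binding Pclaf had spleen log2 fold changes of -0.85, -1.15 and -1.22, with adjusted p values of 0.233, 0.332 and 0.234.

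Among the mitotic kinases and cyclins, Ccna2, the cyclin A of S phase and G2, had 14.0 and 18.7 CPM in KO kidneys against 11.6, 36.1 and 9.67 CPM in WT kidneys, and 10.4 and 10.0 CPM in KO spleens against 19.4, 47.6 and 25.3 CPM in WT spleens. Ccnb2, a cyclin B that activates Cdk1, had 10.3 and 21.0 CPM in KO kidneys against 14.0, 34.6 and 7.33 CPM in WT kidneys, and 15.0 and 9.71 CPM in KO spleens against 21.6, 42.7 and 19.1 CPM in WT spleens. In spleen both KO mice lay below all WT mice for both cyclins, and in kidney they lay inside the WT range. Ccnb1, the main mitotic cyclin B, had 3.69 and 16.4 CPM in KO kidneys against 2.06, 9.67 and 1.17 CPM in WT kidneys, and 7.43 and 5.46 CPM in KO spleens against 10.7, 17.0 and 9.14 CPM in WT spleens. The value of KO2 kidney rests on 14 UMIs and that of WT3 kidney on 4, and the kidney log2 fold change of 1.00 ± 1.03 (SE, adjusted p = 0.784) was the highest of the members. Plk1 (chromosome 7, 122159435 to 122169884), the polo-like kinase that drives spindle assembly, had 2.21 and 5.84 CPM in KO kidneys against 3.33, 8.48 and 2.34 CPM in WT kidneys, and 5.20 and 4.40 CPM in KO spleens against 11.2, 21.5 and 11.7 CPM in WT spleens. The 3 WT spleens lay above all other sums, and in kidney the genotypes overlapped. Cdk1 had a spleen log2 fold change of -1.43, and the Aurora kinases Aurka and Aurkb had -0.58 and -1.21.

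For the checkpoint and the anaphase-promoting complex, Ube2c, the ubiquitin-conjugating enzyme of that complex, had 26.5 and 67.8 CPM in KO kidneys against 34.6, 86.2 and 25.2 CPM in WT kidneys, and 28.0 and 28.4 CPM in KO spleens against 45.2, 92.8 and 52.9 CPM in WT spleens. Cdc20, its activator, had 8.85 and 14.0 CPM in KO kidneys against 7.30, 17.5 and 5.86 CPM in WT kidneys, and 10.0 and 8.19 CPM in KO spleens against 21.6, 32.0 and 16.6 CPM in WT spleens. For both genes the KO spleens lay below the WT spleens, and the kidneys overlapped, with KO2 and WT2 the highest kidneys. The checkpoint kinase Bub1 and its relative Bub1b had spleen log2 fold changes of -0.74 and -0.97.

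Of the chromosome and kinetochore genes, Top2a (chromosome 11, 98992947 to 99024199), the topoisomerase that untangles sister chromatids, had 58.6 and 58.4 CPM in KO kidneys against 63.1, 127 and 76.5 CPM in WT kidneys, and 49.6 and 47.6 CPM in KO spleens against 92.8, 144 and 105 CPM in WT spleens. Mki67 (chromosome 7, 135689784 to 135716450), which coats mitotic chromosomes and is the usual marker of dividing cells, had 44.2 and 44.4 CPM in KO kidneys against 48.1, 123 and 48.1 CPM in WT kidneys. In spleen Mki67 had 54.0 and 38.4 CPM in KO spleens against 95.0, 178 and 86.6 CPM in WT spleens. Both KO mice lay below all WT mice for both genes in each organ, although for Mki67 in kidney WT1 and WT3 stood just above them. The spleen log2 fold change of Top2a was -1.20 ± 0.21 (SE, adjusted p = 0.0889), the smallest adjusted p among the members in this comparison, and that of Mki67 was -1.34 ± 0.36 (SE, adjusted p = 0.167). Birc5 (survivin), Cenpa, Cenpe and Cenpf, proteins of centromere and kinetochore, had spleen log2 fold changes of -1.03, -0.60, -1.11 and -1.17.

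Among the spindle and tubulin genes, Tpx2, which nucleates spindle microtubules, had 8.85 and 7.01 CPM in KO kidneys against 13.5, 31.4 and 12.9 CPM in WT kidneys, and 11.3 and 11.2 CPM in KO spleens against 22.1, 47.1 and 27.0 CPM in WT spleens. Both KO mice lay below all WT mice in each organ, and the kidney log2 fold change of -1.20 ± 0.51 (SE, adjusted p = 0.537) was the lowest of the members there. Hmmr, a hyaluronan receptor that also binds the spindle, had 4.79 and 3.51 CPM in KO kidneys against 5.07, 14.8 and 1.17 CPM in WT kidneys, and 4.09 and 3.79 CPM in KO spleens against 10.2, 22.6 and 12.3 CPM in WT spleens. Its spleen log2 fold change of -1.88 ± 0.41 (SE, adjusted p = 0.117) was the lowest of the members in that organ. Stmn1 had 95.5 and 103 CPM in KO kidneys against 103, 152 and 71.8 CPM in WT kidneys, and 71.7 and 69.5 CPM in KO spleens against 93.7, 167 and 88.2 CPM in WT spleens. Tuba1b, an alpha tubulin, had 141 and 124 CPM in KO kidneys against 134, 171 and 134 CPM in WT kidneys, and 126 and 125 CPM in KO spleens against 158, 188 and 159 CPM in WT spleens. KO spleens lay below WT spleens for all 4 genes, with log2 fold changes of -0.69 for Stmn1 and -0.40 for Tuba1b, while the genotypes overlapped in kidney for Hmmr, Stmn1 and Tuba1b. The kinesins Kif11 and Kif23 had spleen log2 fold changes of -1.40 and -0.38, and Nusap1, a spindle-binding protein, -1.10.

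**Figure D3:**
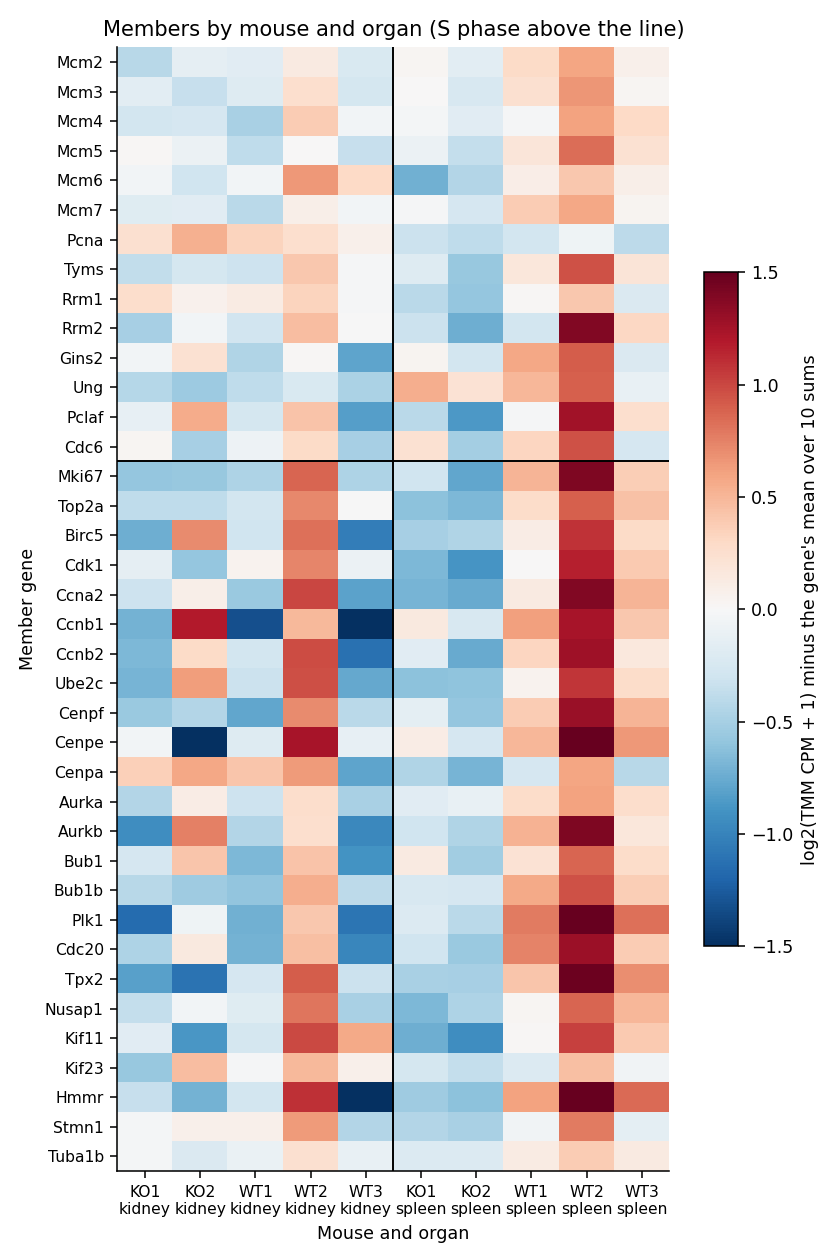
Colours give log2(TMM CPM + 1) of each member minus its mean over the 10 sums, with members down the page (S phase above the horizontal line) and mice across, KO left of WT and kidney left of the vertical line. Colours are cut at 1.5 on either side. The WT2 spleen column is the darkest red, and WT2 was the highest spleen for 38 of 38 members and the highest kidney for 32 of 38.

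In spleen, then, all 38 members had lower levels in KO than in WT mice on average, but the edgeR test called none of them. No member passed an adjusted p of 0.05, against 28 of 11698 genes in all (0.239%), of which 24 were higher in KO (0.205%) and 4 lower (0.0342%). At an unadjusted p under 0.05 there were 24 members, against 16.9% of all genes tested. The log2 fold changes ran between -1.88 (Hmmr) and -0.065 (Ung), with a median of -0.93 over the members and of -0.0061 over all genes. The median was -0.57 over the 14 S-phase members and -1.13 over the 24 mitotic members, and 5 and 19 of them were among the 24 at unadjusted p under 0.05. Both KO spleens lay below all WT spleens for 34 of 38 members, against 20.7% of all genes, and for all 24 mitotic members. The exceptions were Pcna, Gins2, Ung and Cdc6. No member had both KO spleens above all WT spleens, against 18.4% of all genes.

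The count of calls in spleen depended on the test and on 1 mouse. DESeq2 called 12 members lower (Mcm6, Nusap1, Tpx2, Ube2c, Ccna2, Cdc20, Plk1, Mki67, Cdk1, Hmmr, Top2a and Kif11), against 5.96% of all genes. With no filter on low counts edgeR called 6 members lower, against 1.68% of all genes. Without WT1 edgeR called 20 members lower, against 19.9% of all genes, and without WT2 it called 0, with a median of -0.64. Naive T cell markers moved with genotype: all 5 had UMIs in every sum, and together they had 2610.2 to 3395 raw CPM in KO spleens against 352 to 687 in WT spleens. Naive-marker cells were 57.1 and 44.7% in KO spleens against 10.8, 6.83 and 8.06% in WT spleens. Without them the members' median was -0.64. Then 38 of 38 lay below 0, and 8 had an unadjusted p under 0.05, against 9.48% of all genes. The 6 B and plasma cell genes, 3 of which had UMIs in every sum, summed to 142 to 228 raw CPM in KO spleens against 313 to 573 in WT spleens. The share of cells with at least 2 UMIs of Cd79a, Cd79b and Ms4a1 went the other way. It was 0.604 and 0.886% in KO spleens against 0.419, 0.108 and 0.140% in WT spleens. Without other-lineage cells, which include those with B cell genes, the members' median was -1.04. The 3 endothelial genes, of which Emcn was at 0 and 1 had UMIs in every sum, summed to 89.9 to 92.9 raw CPM in KO spleens against 21.9 to 58.0 in WT spleens, and their part in the result was not tested. The ranges of the genotypes overlapped in spleen for the CD8 and NK, myeloid, kidney tubule and erythroid lists. Cells with at least 2 UMIs of Cd8a and Cd8b1 did not overlap. They were 1.51 and 4.37% in KO spleens against 0.838, 0.217 and 0.699% in WT spleens. Without dividing cells, 30 members could still be tested and had a median of -0.22.

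**Figure D4:**
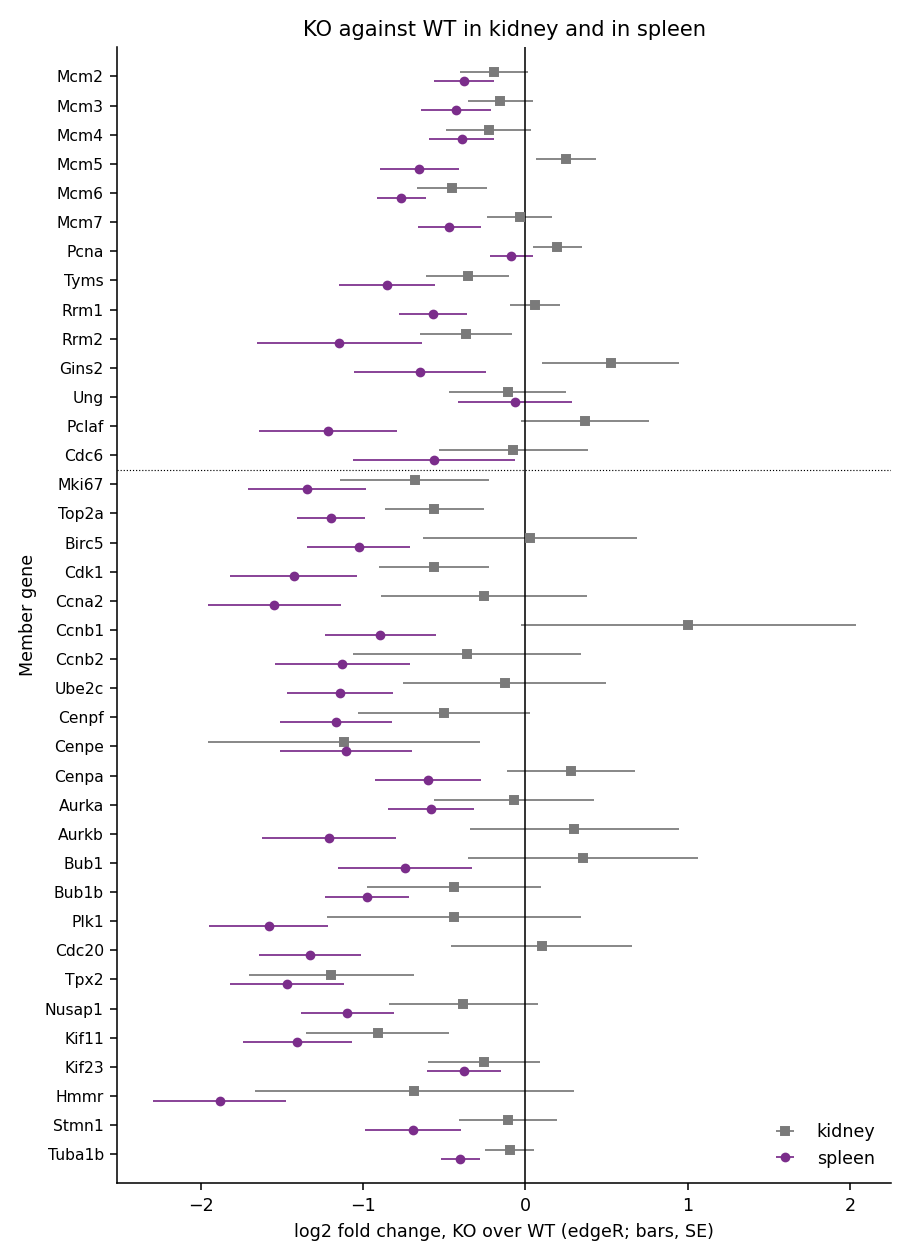
Log2 fold changes, KO over WT, with standard errors from edgeR are drawn for each member in kidney (grey squares) and spleen (purple circles), S phase above the dotted line. All 38 spleen values lie left of 0, and the kidney values lie on both sides, between -1.20 for Tpx2 and 1.00 for Ccnb1.

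In kidney the levels of KO and WT mice overlapped for most members, with log2 fold changes on both sides of 0. EdgeR called 0 of 38 members and 0 of 10486 genes (0%), and no member reached an unadjusted p under 0.05, against 9.21% of all genes. DESeq2 also called 0 members (0.553% of all genes), with 1 at an unadjusted p under 0.05 (7.04% of all genes). Of the log2 fold changes 27 were below 0, with a median of -0.17, against -0.0053 over all genes. Both KO kidneys lay below all WT kidneys for 5 members (Mcm6, Mki67, Top2a, Cdk1 and Tpx2), a share of 13.2% against 17.7% of all genes. No member had both KO kidneys above all WT kidneys, against 12.8% of all genes. The median was 0.12 without WT2, which was the highest kidney for 32 of 38 members, and over the 36 members still tested.

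Markers of CD8 T cells moved with genotype in kidney. The 4 CD8 and NK genes (Cd8a, Cd8b1, Klrd1 and Ncr1), 3 of which had UMIs in every sum, summed to 199.985 to 212 raw CPM in KO kidneys against 40.0 to 112 in WT kidneys. Of the dividing cells, 11 of 22 in KO kidneys and 8 of 131 in WT kidneys had at least 2 UMIs of Cd8a and Cd8b1. Cells with markers of another lineage were 9.62 and 11.0% in KO kidneys against 2.89, 2.32 and 2.32% in WT kidneys. Without them the kidney median of the members was -0.65. Then 34 of 38 lay below 0 and 9 had an unadjusted p under 0.05, against 12.9% of all genes, and none was called. The 6 B and plasma cell genes summed to 120.0 to 141 raw CPM in KO kidneys against 304 to 874 in WT kidneys. Naive T markers were also higher in KO kidneys, at 1701 to 1944 raw CPM against 297 to 717 in WT kidneys. Without naive-marker cells the kidney median was 0.0066. The endothelial genes summed to 51.5 to 61.1 raw CPM in KO kidneys against 15.5 to 50.7 in WT kidneys, and their part was not tested.

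The genotype difference was not shown to differ between organs for any member. The interaction term, the log2 fold change in kidney minus that in spleen, was above 0 for 36 of 38 members, with a median of 0.63, against -0.0061 over all genes. Its values ran between -0.053 for Ung and 1.85 for Ccnb1. EdgeR called 0 of 38 members and 0 of 12072 genes (0%), and 2 members (Mcm5 and Pclaf) had an unadjusted p under 0.05, against 4.03% of all genes. DESeq2 called 0 members, against 0.0499% of all genes, and also had 2 at an unadjusted p under 0.05, against 2.74%. With the mouse as a block, which uses that both organs came from the same animals, 0 were called and 15 had an unadjusted p under 0.05, against 8.23% of all genes. The median was 0.15 without other-lineage cells and 0.012 without dividing cells.

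Between organs, 3 of 38 members differed in edgeR with genotype as covariate, against 24.4% of 11005 genes. Pcna was higher in kidney, at 124 ± 14.9 CPM in kidney and 83.1 ± 7.94 CPM in spleen (SD, n = 5 each), in 5 of 5 mice, with a log2 fold change of 0.58 ± 0.10 (SE, adjusted p = 0.00279). Ung was lower in kidney, at 5.26 ± 0.540 CPM in kidney and 10.3 ± 2.91 CPM in spleen (SD, n = 5 each), in 5 of 5 mice, with -0.94 ± 0.22 (SE, adjusted p = 0.0135). Plk1 was lower in kidney, at 4.44 ± 2.69 CPM in kidney and 10.8 ± 6.84 CPM in spleen (SD, n = 5 each), in 4 of 5 mice, with -1.30 ± 0.41 (SE, adjusted p = 0.0422). In KO2 kidney Ung rested on 4 UMIs and Plk1 on 5. The other 35 members ran between -0.83 (Ccnb1) and 0.52 (Cenpa). Over all 38 the median was -0.29, against -0.037 over all genes, and 31 were below 0.

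With the mouse as a block edgeR called 11 members, against 33.6% of all genes: the same 3 and Mcm2, Mcm3, Mcm4, Mki67, Cenpf, Bub1b, Tpx2 and Cdc20, all 8 lower in kidney. Pcna kept its call in every setting run. Without KO1 (13.8% of all genes called) and without naive-marker cells (22.3%) it was the one member called. Ung and Plk1 also lost their calls without cells of more than 15000 UMIs, Plk1 lost its call without WT1 or without WT3, and without dividing cells Plk1 could not be tested. Naive-marker cells were a smaller share in kidney than in spleen in 5 of 5 mice, at 31.5 and 36.1% in KO kidneys against 9.88, 3.27 and 4.75% in WT kidneys. Without dividing cells, 28 members could be tested and 6 were called, against 24.3% of all genes: Pcna, Stmn1, Cenpa, Rrm1 and Cdk1 higher in kidney and Ung lower, with a median of 0.25 over the 28. Kidney tubule genes reached 655 raw CPM in WT3 kidney and lay between 0.244 and 62.9 in the other sums, and their part in these differences was not tested.

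The share of dividing cells was highest in WT2 in each organ. In kidney it was 2.37% (95% Wilson interval 1.49 to 3.76) in KO1 and 2.28% (0.979 to 5.23) in KO2. In WT kidneys it was 2.64% (1.97 to 3.54) in WT1, 4.50% (3.55 to 5.68) in WT2 and 2.32% (1.54 to 3.49) in WT3. The intervals, which cover counting error only, overlapped between both KO kidneys and all WT kidneys, and WT2 stood above WT1 and WT3. The KO2 share rests on 5 dividing cells.

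In spleen the share was 1.81% (1.22 to 2.68) in KO1 and 1.58% (1.07 to 2.33) in KO2. In WT spleens it was 3.35% (2.70 to 4.15) in WT1, 6.62% (5.18 to 8.41) in WT2 and 2.84% (2.22 to 3.63) in WT3. Both KO spleens lay below all WT spleens. The intervals of both KO spleens overlapped that of WT3 and lay below those of WT1 and WT2. After each cell was thinned to 1500 UMIs and called at 2 mitotic UMIs, the shares were 2.89 and 3.79% in KO kidneys against 4.89, 8.02 and 6.41% in WT kidneys and 2.83 and 2.81% in KO spleens against 4.61, 8.95 and 4.98% in WT spleens. On that scale both KO mice lay below all WT mice in each organ. Thinning left out 4.20% of kidney cells and 3.78% of spleen cells as too shallow. Without other-lineage cells, the shares at 5 UMIs were 1.08 and 1.54% in KO kidneys against 2.53, 4.33 and 2.27% in WT kidneys and 1.55 and 1.54% in KO spleens against 3.14, 6.54 and 2.78% in WT spleens, again with both KO mice lowest in each organ. This left out 10 of 17 dividing cells in KO1 kidney and 2 of 5 in KO2 kidney, so these KO kidney shares rest on few cells. Without naive-marker cells, the shares were 2.65 and 2.86% in KO kidneys against 2.45, 4.51 and 2.22% in WT kidneys. They were 2.64 and 1.49% in KO spleens against 2.77, 6.64 and 2.48% in WT spleens. In that setting the genotypes overlapped in each organ.

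**Figure D5:**
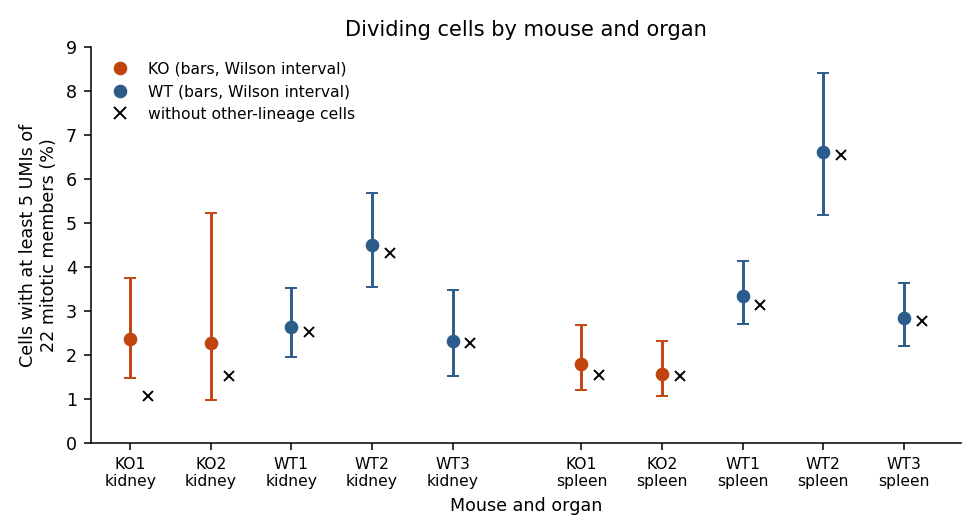
The percent of cells with at least 5 UMIs of 22 mitotic members is plotted for each mouse and organ with 95% Wilson intervals, KO left of WT, and crosses give the share without other-lineage cells. In kidney the crosses of KO1 and KO2 stand at 1.08% and 1.54%, below their points at 2.37% and 2.28%, and the WT crosses stay near their points.

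The wider list of cell cycle genes held 98 further genes of licensing, synthesis, G1 control, inhibition and mitosis, and like the members they were listed with earlier results of these data known. In spleen 0 of the 97 that could be tested were called in KO against WT (0.239% of all genes), and 91 lay below 0, including all 43 mitotic genes of the list, with a median of -0.76. In kidney 0 of 90 were called, and the median was -0.10. DESeq2 called 14 of them lower and 2 higher in spleen (5.96% of all genes called), and 0 in kidney (0.553%). At an unadjusted p under 0.05 edgeR had 48 of 97 in spleen, against 16.9% of all genes, and 7 of 90 in kidney, against 9.21% of all genes. Between organs 21 of 97 were called, against 24.4% of all genes: 14 higher in kidney, against 13.5% of all genes, and 7 lower, against 10.9%.

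Of those higher in kidney, Cdkn1a (p21, an inhibitor of cyclin-dependent kinases) had 179 ± 52.7 CPM in kidney and 46.7 ± 25.5 CPM in spleen (SD, n = 5 each). It was higher in 5 of 5 mice, with a log2 fold change of 1.95 ± 0.33 (SE, adjusted p = 0.00224). Dbf4, the activator of the Cdc7 kinase that fires replication origins, had 95.9 ± 17.2 CPM in kidney and 40.9 ± 10.1 CPM in spleen, with 1.23 ± 0.18 (SE, adjusted p = 9.09e-04). Cdkn1c (p57), a relative of p21, had 7.12 ± 4.26 CPM in kidney and 3.66 ± 3.24 CPM in spleen and was higher in 4 of 5 mice, with 1.19 ± 0.34 (SE, adjusted p = 0.0310). On the list, 4 of 9 inhibitors were called higher in kidney (Cdkn1a, Cdkn1b, Cdkn1c and Btg1), against 13.5% of all genes, and 0 were called lower, against 10.9%. Cdkn1b (p27) had 187 ± 14.5 CPM in kidney and 141 ± 16.8 CPM in spleen, with 0.41 ± 0.095 (SE, adjusted p = 0.0117), and Cdkn2a had 17.5 ± 6.91 CPM in kidney and 15.3 ± 4.95 CPM in spleen, with 0.27 ± 0.23 (SE, adjusted p = 0.434). Of those lower in kidney, Pbk, a mitotic kinase, had 1.66 ± 1.03 CPM in kidney and 4.47 ± 1.71 CPM in spleen, with -1.25 ± 0.36 (SE, adjusted p = 0.0315). Melk, another kinase of dividing cells, had a log2 fold change of -1.17 ± 0.35 (SE, adjusted p = 0.0352), and E2f2, an activating E2F factor, had -1.01 ± 0.19 (SE, adjusted p = 0.00474). All 3 were lower in 5 of 5 mice. In KO against WT the log2 fold changes of Cdkn1a, Cdkn1b and Cdkn2a were 0.49, -0.12 and -0.36 in kidney and -0.40, 0.092 and -0.70 in spleen, none with an adjusted p under 0.05.

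The genes most like Mki67 over the 10 sums, by Pearson correlation of log2 CPM among genes outside the 38, were Bak1 (r = 0.961), Anp32b (0.958), Pola1 (0.955), Cpsf2 (0.947) and Ran (0.942). The 10 sums share 5 mice and the height of WT2, so these values are a description. Mki67 had 85.6% of its UMIs in dividing cells, called without its own UMIs. These 5 genes had between 17.4% (Cpsf2) and 40.7% (Pola1) of their UMIs in dividing cells.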

How the data were processed

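The authors deposited raw UMI counts per gene and per antibody tag for kidney and spleen cells, made with Cell Ranger 7.1.0 per the file headers. The submitters' processing notes also name Seurat 5.0.1 and the builds mm10 and GRCm38, and no source used here gives further settings. The tag key, barcodes and gene names are lists without a unit. Tag numbers were joined to the key by its order of mice, and first-day blocks were taken as those with UMIs of tags HTO9 and HTO10. Cells needed at least 200 genes and under 10% mitochondrial UMIs, 13 cells in which another tag led were dropped, and no doublet caller was run.

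Counts were summed per mouse and organ and tested with edgeR 4.0.16 (TMM, filterByExpr, quasi-likelihood test, R 4.3.3), with Benjamini-Hochberg adjustment over all genes tested at 0.05. All 38 members passed the filter in all 4 comparisons. The organ comparison had genotype as covariate. Alternatives were DESeq2 1.42.0, library totals without TMM, no filter, each mouse left out, the mouse as a block, and sums without other-lineage cells, cells of more than 15000 UMIs and, added after seeing the data, dividing cells and naive-marker cells by 5 genes (1 gene of the naive T list is not reported here). Other-lineage cells had 2 or more UMIs of CD8 or B cell genes, 3 or more of myeloid or tubule genes, or 20 or more of globin genes. The marker lists were CD4 T, CD8 and NK, B and plasma, myeloid, kidney tubule, erythroid, endothelial and naive T genes. Summed myeloid genes lay between 109 and 228 raw CPM, endothelial genes between 15.5 and 92.9 with Emcn at 0, and erythroid genes at up to 3.65.

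Both organs of a mouse come from the same animal in the key, which pairs them. Deviations from the group means correlated between organs over 12067 genes at 0.63 for WT1, 0.58 for WT2 and 0.24 for WT3. With 2 KO mice the deviations of KO1 and KO2 mirror each other, so they share 1 value by design, 0.0229. The fits were tested on simulated counts with the same dispersion for every gene and independent sums. This does not show how they perform with the spread between these mice.

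Values in every sum are printed for the 2 members of highest mean CPM per role, for members called in a comparison, and for the highest and lowest fold change of each comparison. Of the wider list, up to 3 called genes per direction with the largest change are named. The members and lists were chosen with earlier results of these data known. Promoter windows are RefSeq's, of GRCm38.p6.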

Additional observations from a re-analysis of the deposited data

Results flagged for a closer look

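Second-day cells entered no comparison, since the same cells stood under several mice and both organs, and they held a signal of the members. A second-day block of the largest size, 2399 cells, was read, and 2392 of its cells were kept. Over these the S-phase members had 379 raw CPM (UMI counts scaled to 1000000) and the 22 mitotic members 207, where 3 counts would give 0.313 raw CPM. Of these cells 32 were dividing (1.34%, 95% Wilson interval 0.949 to 1.88). These values belong to no genotype or organ. Groups of 2 and 3 mice were too small for a test of single mice that stand apart.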

How the results depend on the processing

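Of the summary values, 138 stayed within the replicate spread or 1.5 times the main count under an alternative and 17 moved. The count of members called in KO against WT spleen was 0, with DESeq2 12, with no filter on low counts 6, and with 1 mouse left out 0 to 20, the highest without WT1. The count between kidney and spleen was 3, with the mouse as a block (the paired fit) 11, without dividing cells 6, without naive-marker cells 1, and with 1 mouse left out 1 to 4. The block changed no other call of a member. The log2 ratio of the summed S-phase members, KO over WT, was -0.13 in kidney, -0.47 without other-lineage cells and -0.36 in thinned cells. In spleen it was -0.62, with -0.30 without naive-marker cells, -0.34 without cells of more than 15000 UMIs and -0.30 without dividing cells. For the mitotic sum in spleen it was -0.96, and -0.35 without dividing cells. The dividing share, KO minus WT, was -0.827 percentage points in kidney, -3.42 at 3 or more UMIs and -3.1 in thinned cells. In spleen it was -2.57 and, at 3 or more UMIs, -4.72. Kidney minus spleen was -0.418, and at 3 or more UMIs it was 1.33, with the sign turned. In sums without dividing cells the mitotic members other than Stmn1 and Tuba1b lose most of their counts by construction, since they define these cells. Between 52.8 and 87.6% of their counts in each sum lay there. The S-phase members do not enter that rule. The share of their counts in dividing cells was 62.8% in WT2 spleen and at most 46.5% (WT1 spleen) in the other sums. For the S-phase sum without dividing cells, and for the other settings, the cause was not tested. Of single genes, 98 values kept their call, 8 of Ung or Plk1 lost it and 3 of Hmmr gained it. No value past its threshold changed sign, while several that passed none did. In KO against WT kidney, the S-phase sum stood at 0.031 without WT2 and 0.071 without naive-marker cells. The mitotic sum, -0.19 over all mice and cells, stood at 0.14 and 0.17 in these settings, and Ccnb1, at 1.00, at -0.22 without KO2. Kidney over spleen, the S-phase sum of -0.12 was 0.025 without cells of more than 15000 UMIs, 0.022 with TMM-scaled totals and 0.050 without dividing cells, where the mitotic sum of -0.26 was 0.19. The difference in dividing share, kidney minus spleen, also turned without WT2, at 0.00663, and in thinned cells, at 0.365 percentage points. Ung in KO against WT spleen, at -0.065, lay between 0.10 and 0.44 where it turned (without KO2, WT2, dividing cells or cells of more than 15000 UMIs), and its interaction term, at -0.053, was 0.027 without KO1 and 0.12 without WT3. The member medians turned in kidney without WT2 (0.12) and without naive-marker cells (0.0066), and between organs without dividing cells (0.25).

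The comparisons rest on 2 KO mice, of which KO2 gave 219 kidney cells. Ccnb1 and Ung rest on 4 UMIs, Plk1 on 5 and Hmmr on 3 in the kidney where each had the fewest. In KO2 kidney Cenpe had 0 UMIs, Cdc6 3 and Bub1b 4, and these members also entered the kidney medians. Organ cannot be told apart from dissociation, and the dosing schedule of each mouse is unknown. The tag numbers were joined to the key by order, so that a wrong join would exchange mice.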

Other observations

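Ezh2 itself was higher in raw CPM in dividing than in other cells of all 10 sums. In dividing cells it had 151 and 97.2 raw CPM in KO kidneys against 145, 292 and 363 in WT kidneys, and 238 and 200 in KO spleens against 208, 396 and 425 in WT spleens. In the other cells it had 64.8 and 52.0 in KO kidneys against 78.2, 132 and 122 in WT kidneys, and 40.1 and 48.2 in KO spleens against 59.9, 125 and 128 in WT spleens. Outside dividing cells both KO mice lay below all WT mice in each organ, and inside them KO1 lay above WT1 in both. No test was made of these values, and a UMI of Ezh2 does not tell a deleted from an intact allele.

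Outside dividing cells, the 22 mitotic members had 114 and 130.0 raw CPM in KO kidneys against 150.1, 198 and 176 raw CPM in WT kidneys, and 82.9 and 90.9 raw CPM in KO spleens against 115, 176 and 146 raw CPM in WT spleens. Kidney lay above spleen in 5 of 5 mice, and both KO mice lay below all WT mice in each organ. Within dividing cells the order of the organs was the other way in 5 of 5 mice, with 3456 and 3609 raw CPM in KO kidneys against 3388, 4895 and 3198 raw CPM in WT kidneys, and 4718 and 4706 raw CPM in KO spleens against 4514, 4940.0 and 5472 raw CPM in WT spleens. The same 22 members define these cells. Exactly at 5 UMIs lay 37 of 153 dividing cells in kidney and 32 of 251 in spleen. The part of this cutoff in the order of the organs was not tested.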
